A study of Homo sapiens with 16 samples.

Results

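RNA of A673 cells, an established Ewing sarcoma line, was compared between 53 h and 72 h of doxycycline. The comparison rests on 4 of the 16 arrays of the series, the 2 labelled 53 h and the 2 labelled 72 h, which were picked by the hours in their labels. All 4 came from Asp14, a single A673 clone that carries a doxycycline-inducible construct against EWS-FLI1. Cells of both times were grown with Zeocin, which selects for the hairpin vector, and Blasticidin, which selects for the vector labelled TR, and both had received 1 ug/ml doxycycline. The groups therefore share the clone, the knockdown, the drug and the selection, and differ in 19 further hours. No untreated cells of 53 h or 72 h were among the arrays, so time in culture, time in doxycycline and time without the fusion cannot be told apart. Replicates are numbered in the labels, but no label names the culture of each. The p-values therefore reflect how far these arrays lie apart, which may be technical. RNA came from whole cultures, where fewer cells of a kind and less RNA per cell cannot be told apart. By its title the study asks how EWS-FLI1 and E2F are related.

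EWS-FLI1 joins part of the EWSR1 protein to the DNA-binding domain of FLI1, an ETS transcription factor, and drives Ewing sarcoma. It activates some genes and represses others, among them genes of mesenchymal cells. E2F factors switch on genes of DNA replication before S phase, whereas genes of mitosis are held off by the DREAM complex and switched on later by MuvB with B-MYB and FOXM1, through promoter elements that include TTTGAA and CCAAT. Inflammatory cytokines and adhesion molecules such as ICAM1 are textbook targets of NF-kB, which binds elements that begin with GG and end in CC in their promoters.

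Promoters of 5 genes are shown as examples, 2 mitotic genes that were lower at 72 h and 3 inflammatory genes that were higher. No change given below depends on these sequences, and binding to them was not tested. Each is the 200 bases before the start given by RefSeq (GRCh38.p14, plus strand, read 5′ to 3′), with capitals marking TTTGAA and CCAAT in CCNB2 (chr15:59104946-59105145) and CDC20 (chr1:43358781-43358980), and GGANNTTCC in CXCL1 (chr4:73869193-73869392), CXCL8 (chr4:73740369-73740568) and ICAM1 (chr19:10270920-10271119). Both strands were searched, so TTCAAA marks TTTGAA on the minus strand.
CCNB2: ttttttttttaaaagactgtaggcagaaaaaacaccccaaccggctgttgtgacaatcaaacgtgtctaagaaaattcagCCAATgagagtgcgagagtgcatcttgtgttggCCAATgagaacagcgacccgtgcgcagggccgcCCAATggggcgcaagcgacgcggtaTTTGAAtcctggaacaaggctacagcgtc
CDC20: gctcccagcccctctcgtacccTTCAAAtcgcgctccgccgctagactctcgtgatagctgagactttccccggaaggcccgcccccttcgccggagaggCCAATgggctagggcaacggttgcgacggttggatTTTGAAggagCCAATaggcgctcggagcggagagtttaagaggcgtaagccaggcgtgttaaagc
CXCL1: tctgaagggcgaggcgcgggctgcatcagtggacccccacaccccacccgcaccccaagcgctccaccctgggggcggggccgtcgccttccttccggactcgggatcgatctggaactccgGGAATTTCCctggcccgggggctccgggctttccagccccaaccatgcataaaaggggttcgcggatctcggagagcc
CXCL8: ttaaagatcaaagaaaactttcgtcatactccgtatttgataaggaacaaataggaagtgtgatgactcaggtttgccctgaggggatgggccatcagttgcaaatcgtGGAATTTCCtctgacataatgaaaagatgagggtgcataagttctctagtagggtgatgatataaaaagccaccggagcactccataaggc
ICAM1: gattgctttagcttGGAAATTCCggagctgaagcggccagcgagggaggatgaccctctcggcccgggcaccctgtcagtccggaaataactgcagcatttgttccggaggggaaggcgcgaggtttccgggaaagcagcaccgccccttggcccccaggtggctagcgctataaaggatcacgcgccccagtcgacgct
CCNB2 had 3 copies of CCAAT, beginning 120, 87 and 54 bases before the start, and TTTGAA at 29. CDC20 had CCAAT at 100 and 55 and TTTGAA at 65 and, on the minus strand, at 178. GGANNTTCC, a form of the NF-kB element, was chosen after the changes had been seen. It stood 78 bases before the start of CXCL1, 91 before that of CXCL8 and 186 before that of ICAM1. A match of letters is a description and not a binding site.

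Over windows of 250 bases before to 50 after the start, TTTGAA and CCAAT stood together in 18 of 41 windows of the tested mitotic genes (43.9%) and in 20 of 41 windows of the tested kinetochore and spindle genes (48.8%). The pair stood in 2073 of all 35116 windows (5.90%). In the windows of the G1/S and replication genes it stood in 3 of 68 (4.41%), while TTTGGCGC or TTTCGCGC, forms of the E2F element, stood in 16 of 68 (23.5%, against 1.15% of all windows). GGANNTTCC was found in 6 of 16 windows of the tested cytokine and chemokine genes (37.5%, against 4.56% of all). GGAAGGAA, a pair of ETS cores, was found in 3 of those 16 (18.8%, against 3.67% of all), in 1 of 34 windows of the matrix genes and in 0 of 41 of each mitotic list. GGAAGGAA and GGANNTTCC can share letters. Windows were found for 29 of 37 mitotic, 36 of 40 kinetochore, 48 of 55 replication, 28 of 41 matrix and 13 of 15 cytokine genes, and some genes had over 1.

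The upper quartile of log2 intensity was 8.07 to 8.17 over the 16 arrays, and their number limits the precision. The arrays of 53 h differed from each other with an SD of 0.286 on the log2 scale across genes, those of 72 h with 0.233. RNA quality was read from the 3' minus the 5' probe set of ACTB and of GAPDH. The ACTB differences were 2.34 and 1.83 on the arrays of 53 h and 1.70 and 1.61 on those of 72 h. They thus moved with time. For GAPDH the differences were 0.22 and 0.07 at 53 h and 0.14 and 0.03 at 72 h, and the times overlapped. At 18 h and 36 h, the arrays numbered 2 and 3 differed by an SD of 0.161 and 0.186 and the array numbered 1 from them by 0.497 to 0.529, which bears on the tests because the 12 arrays after doxycycline share 1 estimate of the spread. All 7 Ewing sarcoma line markers on the array were above log2 4, and 0 of 12 blood cell markers were. Of 13 epithelial markers KRT18 alone was above log2 4, with EPCAM and CDH1 below it, and the list's linear intensities summed to 391.5 and 467.3 on the 53 h arrays and to 1077 and 1117 on the 72 h arrays. Of 9 endothelial markers KDR, FLT1 and CLDN5 were above it, with PECAM1 and CDH5 below, and the sum was 468.2 and 421.8, then 279.6 and 219.9. The part of these lists in the results was not tested.

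FLI1, whose probe sets read the 3' partner of the fusion, was already low at 53 h. Its brightest probe set read 6.90 and 6.69 at 53 h and 7.11 and 6.88 at 72 h on the log2 scale, against a mean of 10.08 at 0 h. The ranges overlapped, and the change of 0.20 ± 0.21 (log2, 72 h minus 53 h, ± SE, n = 2 arrays each) had a limma adjusted p of 0.589. EWSR1 was at 8.71 and 8.52 and then 8.58 and 8.44. E2F1, an activating E2F, was at 5.04 and 5.02 and then 4.82 and 5.02. Neither passed, with changes of -0.11 ± 0.13 and -0.11 ± 0.20 (limma adjusted p 0.652 and 0.773).

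Between 53 h and 72 h, 1048 of 7235 genes tested passed a limma adjusted p of 0.05 (14.5%). At 72 h 389 were higher (5.38%) and 659 lower (9.11%), and in 200 and 172 of these the log2 change was 1 or more in size. Of all genes tested, 66 needed the arrays of 72 h to pass the filter on low values and 25 those of 53 h. Some needed both and count in each. Without any of these genes 357 of 7150 were higher and 653 lower. The arrays of the times did not overlap for any of the 1048. Over all genes tested the arrays of 72 h lay above both arrays of 53 h for 24.7% and below both for 39.9%, and the median change was -0.07. Of the rises, 69 began from a level below log2 4 at 53 h in every probe set of the gene, and 45 of the falls ended there. The counts were 356 (174 higher, 182 lower) without 53 h replicate 1, 840 (262, 578) without 53 h replicate 2, 359 (135, 224) without 72 h replicate 1 and 406 (165, 241) without 72 h replicate 2, each with the lone array of a time assumed to vary like the other times. With the ACTB difference as a covariate, added after the data were seen, 281 genes passed, 144 higher and 137 lower.

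**Figure D1:**
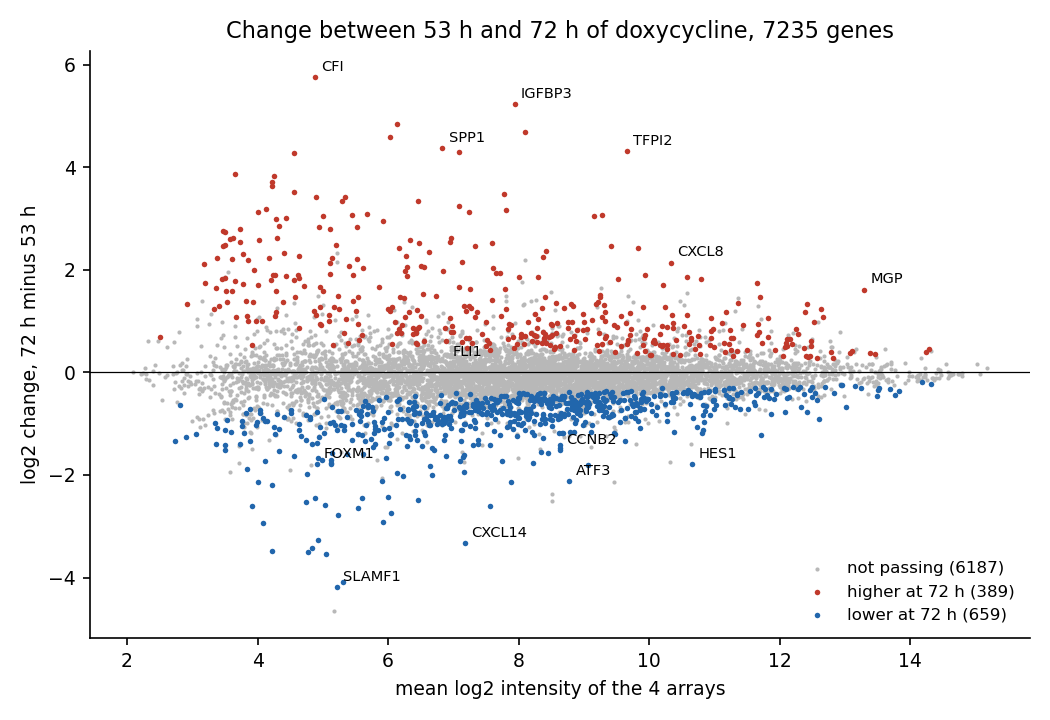
Log2 change from 53 h to 72 h (vertical axis) against the mean log2 intensity of the 4 arrays (horizontal axis), 1 point a gene, with the 389 genes that passed as higher in red, the 659 lower in blue and the rest in grey. CFI and IGFBP3 lie highest and SLAMF1 lowest among genes that passed, while FLI1 lies near 0.

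CFI, the serine protease that cleaves complement C3b and C4b, had the largest rise of all genes tested. It read 2.04 and 1.96 at 53 h and 7.86 and 7.64 at 72 h. Both arrays of 53 h were at background and both of 72 h far above it, so CFI was at least 13.5-fold higher, counted against log2 4 (fitted change 5.75 ± 0.20, limma adjusted p 2.1e-07). IGFBP3, a binding protein of insulin-like growth factors that EWS-FLI1 is known to repress, read 5.27 and 5.38 and then 10.20 and 10.92. It rose by 5.23 ± 0.22 (limma adjusted p 5.7e-07), and a second probe set rose from 2.53 and 2.22 to 7.67 and 7.86. PRL, which encodes prolactin, read 4.55 and 2.89 and then 8.47 and 8.64, and A2M, a broad protease inhibitor of plasma, 5.77 and 5.72 and then 10.35 and 10.53. The groups stood well apart in both, with changes of 4.83 ± 0.56 and 4.69 ± 0.57 (limma adjusted p 0.000473 and 0.000559).

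PTPRE, a receptor-type tyrosine phosphatase, went from 3.67 and 3.80 to 8.42 and 8.23, at least 20.1-fold higher. SPP1, which encodes the bone matrix protein osteopontin, went from 4.35 and 4.95 to 9.11 and 8.93, and TFPI2, a Kunitz-type inhibitor of serine proteases, from 7.57 and 7.42 to 11.97 and 11.66. At 96 h TFPI2 read 13.72 and 13.40. GPX3, the secreted glutathione peroxidase, went from 5.20 and 4.66 to 9.45 and 9.02, and its second probe set changed alike (4.44 against 4.30). AQP3, a water and glycerol channel, read 2.44 and 2.42 and then 6.70 and 6.71, at least 6.52-fold higher. Its other 2 probe sets stayed below log2 4 on the 4 arrays, with changes of 0.01 and -0.00, so the rise of AQP3 rests on 1 probe set. PI3, the elastase inhibitor elafin, rose at least 3.02-fold, and its other probe set stayed below log2 4 on the 4 arrays, with a change of 1.14. The 6 rises of PTPRE, SPP1, TFPI2, GPX3, AQP3 and PI3 had limma adjusted p between 2.1e-07 and 0.000153.

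**Figure D2:**
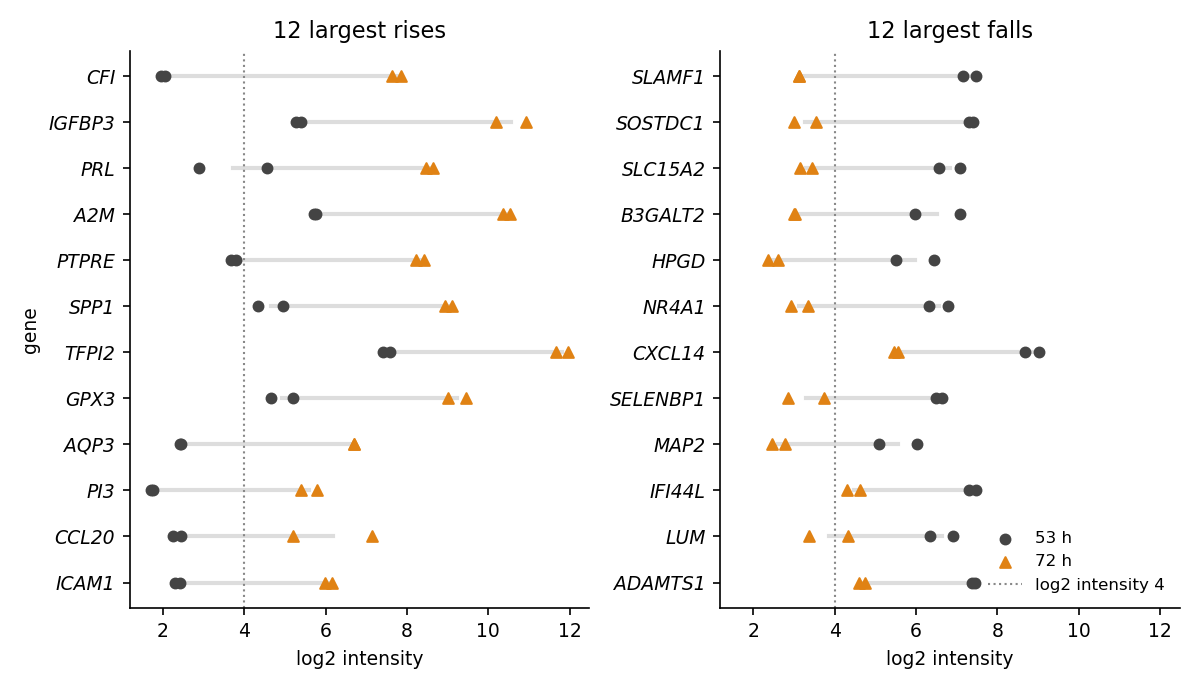
Log2 intensity of the 12 genes with the largest rises (left) and the 12 with the largest falls (right) among genes that passed the test, on the 2 arrays of 53 h (dark circles) and the 2 of 72 h (orange triangles), with grey bars between the means and a dotted line at log2 4. No gene's arrays overlap between the times, and CFI, PTPRE, AQP3, PI3, CCL20 and ICAM1 begin below the line on both arrays.

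Among genes that passed, SLAMF1 fell most, while INHBE, described with the stress genes, changed by -4.66 and did not pass. SLAMF1, a signalling receptor of lymphocytes, read 7.47 and 7.15 at 53 h and 3.12 and 3.11 at 72 h, at least 9.92-fold lower, and fell by 4.19 ± 0.21 as fitted (limma adjusted p 1.9e-06). SOSTDC1, a secreted antagonist of BMP and Wnt ligands, went from 7.31 and 7.41 to 3.00 and 3.53, at least 10.2-fold lower. HPGD, which inactivates prostaglandins, went from 6.43 and 5.51 to 2.36 and 2.61, and B3GALT2, a galactosyltransferase, from 7.07 and 5.97 to 3.03 and 3.00. All arrays of 72 h were below log2 4 in these 3 genes. B3GALT2 was high at 53 h alone after doxycycline, with means of 3.77, 3.02 and 2.97 at 18 h, 36 h and 96 h. Its other probe set changed by -1.40. SELENBP1, a selenium-binding protein, was at least 5.88-fold lower, and MAP2, the microtubule protein of dendrites, at least 2.94-fold lower.

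CXCL14, a chemokine, read 9.02 and 8.67 and then 5.47 and 5.56, still above background at 72 h, and fell by 3.33 ± 0.57 (limma adjusted p 0.00441). IFI44L, an interferon-induced gene, went from 7.47 and 7.30 to 4.31 and 4.62. LUM, which encodes the collagen-binding proteoglycan lumican, went from 6.91 and 6.34 to 4.34 and 3.36. ADAMTS1, a protease of proteoglycans, went from 7.44 and 7.38 to 4.74 and 4.59. These 4 falls were seen on both arrays of 72 h. SLC15A2, a peptide transporter, fell by 3.54 ± 0.48 on its brightest probe set, whereas its second probe set changed by -0.50, and NR4A1, an orphan nuclear receptor, by 3.42 ± 0.89, with its other probe sets at -0.85 and -0.00.

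Of the cytokine and chemokine genes that passed the filter on low values, most rose, where 5.38% of all genes tested did. Of 29 listed genes 28 were on the array and 15 passed the filter on low values, of which 10 rose, CXCL14 fell and 4 did not pass, with a median change of 1.82 against -0.07 over all genes. CXCL1, CXCL2 and CCL20 reached log2 4 on the arrays of 72 h only, so they entered the test through those arrays and had to differ. Without them 7 of 12 rose with a median of 1.37, and over all 28 genes on the array, with no filter, 8 rose and 1 fell with a median of 0.23, below the 0.41 of the actin and adhesion list. With 53 h replicate 1, 53 h replicate 2, 72 h replicate 1 and 72 h replicate 2 left out in turn, 6, 8, 5 and 4 passed as higher, and with the ACTB covariate 6.

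CCL20, the ligand of CCR6, read 2.45 and 2.24 at 53 h and 5.21 and 7.13 at 72 h, at least 4.50-fold higher. The arrays of 72 h were both high but lay 1.92 apart. CXCL1, a ligand of CXCR2 whose promoter is printed above, read 2.50 and 2.49 and then 4.79 and 4.64, at least 1.64-fold higher, and CXCL2, its close relative, 2.64 and 2.61 and then 4.44 and 5.42. CXCL8, or interleukin 8, was bright at both times, at 9.45 and 9.07 and then 11.29 and 11.50. Its change of 2.14 ± 0.64 sat at the threshold (limma adjusted p 0.0499). CCL2, a monocyte chemokine, rose by 1.82 ± 0.52 from 8.71 and 8.52 to 10.48 and 10.39.

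IL1B and IL1A, the secreted and the cell-bound interleukin 1, rose together. IL1B read 5.69 and 4.82 and then 7.10 and 7.52, a change of 2.05 ± 0.28 (limma adjusted p 0.00112). IL1A read 6.74 and 7.21 and then 8.38 and 8.82, a change of 1.63 ± 0.33. LIF, a cytokine of the interleukin 6 family, rose by 2.08 ± 0.21, and IL32 from 2.09 and 2.07 to 4.43 and 5.26. NFKBIA, the inhibitor that holds NF-kB in the cytoplasm and is itself an NF-kB target, read 9.89 and 10.17 and then 11.19 and 11.09, and rose by 1.11 ± 0.19 (limma adjusted p 0.00427). TNFAIP3, another inhibitor of the pathway, changed by 0.57 ± 0.59 and did not pass.

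ICAM1, the adhesion molecule that binds leukocyte integrins, was in no list and was named for the size of its change. It reached log2 4 on the arrays of 72 h only, so it entered the test through those arrays and had to differ. It read 2.31 and 2.43 at 53 h and 5.99 and 6.16 at 72 h, at least 4.21-fold higher (fitted change 3.70 ± 0.20, limma adjusted p 3.3e-06). Both arrays of 72 h were high, and a second probe set rose from 2.05 and 2.01 to 4.63 and 4.76. RELB, an NF-kB subunit chosen after its values were seen, read 2.19 and 2.27 and then 4.49 and 4.91, at least 1.63-fold higher. Of the arrays of 53 h, 72 h and 96 h RELB, too, reached log2 4 on those of 72 h only.

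At 96 h most of the named values were lower than at 72 h. The comparison of 96 h with 72 h shares the arrays of 72 h, so its values are given side by side only. CCL20 read 2.22 and 2.19 at 96 h, CXCL1 2.52 and 2.47, CXCL2 2.64 and 2.57, and RELB 2.09 and 2.10, near their 53 h values, and ICAM1, at 3.47 and 2.88, lay between its levels of 53 h and 72 h. CXCL8, at 11.59 and 10.88, and LIF, at 6.07 and 5.50, stayed above theirs. Of the 15 tested members 9 passed as lower and 0 as higher at 96 h against 72 h. Over all 7235 genes, fewer passed as lower there than the 1161 that passed as higher. The 9 include CXCL1, CXCL2 and CCL20. These entered the test through the arrays of 72 h only, so they had to be lower at 96 h. At 53 h against 36 h, 6 members had passed as higher and 0 as lower, where 372 of all 7235 genes were higher.

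**Figure D3:**
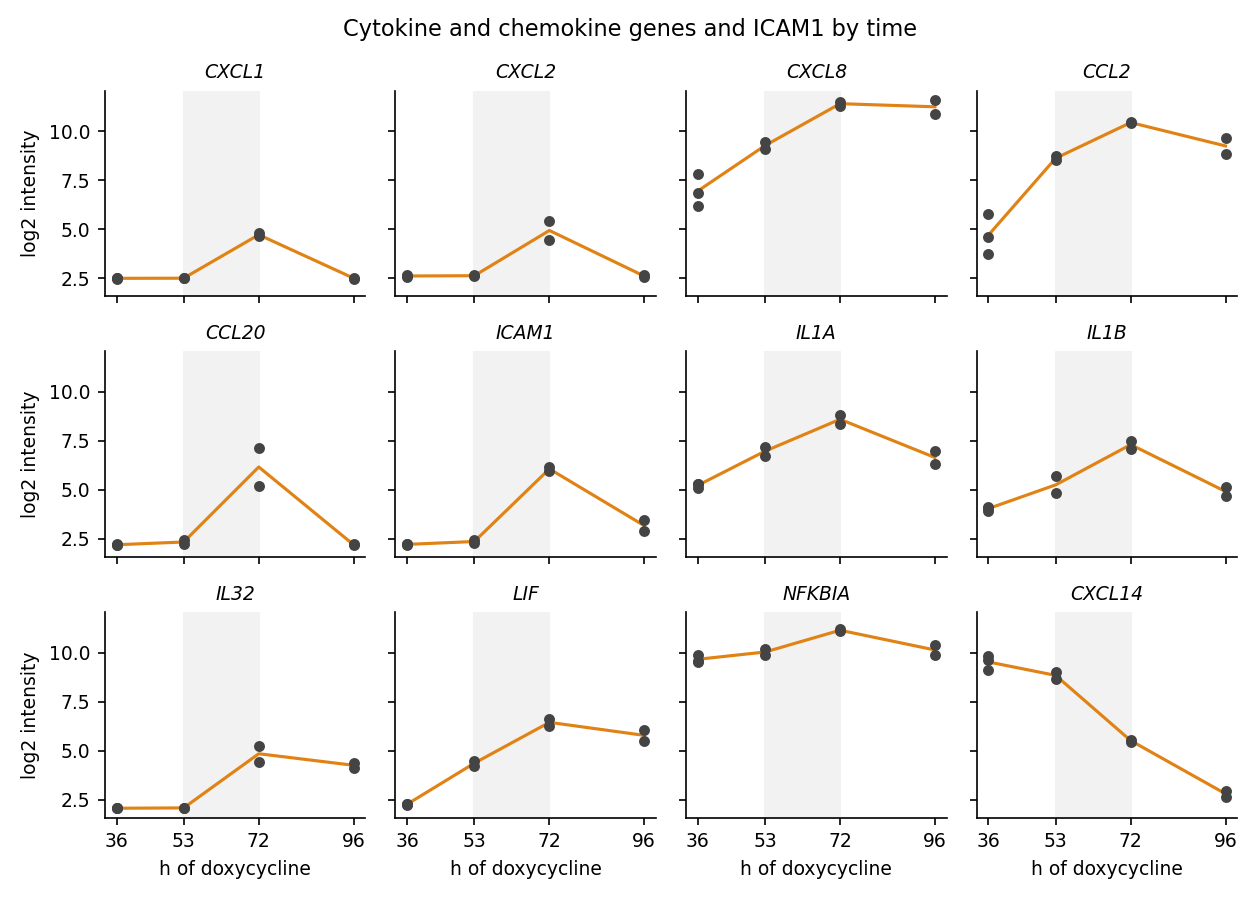
Log2 intensity of cytokine and chemokine genes, of the NF-kB inhibitor NFKBIA and of ICAM1 at 36 h, 53 h, 72 h and 96 h of doxycycline. Each point is 1 array, a line runs through the means and the interval from 53 h to 72 h is shaded. CXCL1, CXCL2, CCL20 and ICAM1 are above log2 4 at 72 h alone, CXCL8 stays high at 96 h, and CXCL14 goes down from 36 h on.

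Part of the genes of mitosis fell. Of 37 tested genes for mitotic cyclins, kinases and checkpoints 14 fell, 0 rose and 23 did not pass, where 9.11% of all genes tested fell, with a median change of -0.65. The mean log2 level of the list was 7.76 and 7.55 on the arrays of 53 h and 6.95 and 6.96 on those of 72 h. Of 40 tested kinetochore, spindle and cytokinesis genes 16 fell, 0 rose and 24 did not pass, with a median of -0.65 and means of 7.51 and 7.18 and then 6.80 and 6.69. Both arrays of 72 h were thus below both of 53 h in each list. With 53 h replicate 1, 53 h replicate 2, 72 h replicate 1 and 72 h replicate 2 left out in turn, 4, 15, 5 and 7 mitotic and 2, 17, 5 and 1 kinetochore genes passed as lower. With the ACTB covariate 4 and 1 did.

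CCNB2, the cyclin of CDK1 whose promoter holds 3 CCAAT and 1 TTTGAA, read 9.53 and 9.26 at 53 h and 7.79 and 7.95 at 72 h. The times did not overlap, and CCNB2 fell by 1.52 ± 0.14, with the smallest limma adjusted p of the mitotic list, 0.000124. FOXM1, the transcription factor of mitotic genes, read 5.68 and 5.93 and then 4.02 and 4.01, and fell by 1.80 ± 0.18 (limma adjusted p 0.000172). HMMR, a spindle-associated protein, fell by 1.42 ± 0.17, from 8.53 and 8.01 to 6.79 and 6.92, and a second probe set changed by -1.74. CDC20, the activator of the anaphase-promoting complex, fell by 1.21 ± 0.26 from 8.42 and 8.22 to 7.30 and 6.91. Securin, PTTG1, fell by 1.02 ± 0.13.

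The checkpoint kinases BUB1 and TTK fell by 1.17 ± 0.25 and 0.99 ± 0.22. Topoisomerase II alpha, TOP2A, fell by 0.97 ± 0.27, and survivin, BIRC5, by 1.00 ± 0.19. Among kinetochore and spindle genes DLGAP5, a spindle protein, read 8.77 and 8.55 and then 7.36 and 7.70, and fell by 1.12 ± 0.17 (limma adjusted p 0.0019). NCAPD2, a condensin subunit, and ASPM, a spindle pole protein, fell by 0.88 ± 0.16 and 0.92 ± 0.17. CENPN, a centromere protein, fell by 0.83 ± 0.15, although its other probe set, which was below log2 4 on the 4 arrays, changed by 0.47. CENPA, the histone H3 variant of centromeres, was at least 1.16-fold lower.

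Of 55 tested G1/S and replication genes 4 fell and 0 rose, a share near the 9.11% that fell among all genes, with a median of -0.12 against -0.07 over all genes. The mean log2 level of the list was 7.07 and 6.87 and then 6.86 and 6.84. PRIM1, the catalytic subunit of DNA primase, read 7.81 and 7.56 at 53 h and 5.65 and 5.70 at 72 h, a fall of 2.01 ± 0.21 (limma adjusted p 0.000197). PRIM2, the other primase subunit, fell by 0.68 ± 0.19 and RPA3, a subunit of the single-strand binding protein, by 0.56 ± 0.15. RRM2, the small subunit of ribonucleotide reductase, fell by 0.76 ± 0.17 on the probe set used, while its other probe set changed by 0.01. MCM2 to MCM7, the replicative helicase, changed by -0.10 to 0.28 with 0 of 6 passing. Leaving out each array in the same order as above left 1, 4, 1 and 1 of the 55 as lower, and the ACTB covariate 1.

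For E2F and RB family genes, 10 were tested and gave 0 rises and 0 falls in limma, with a median of 0.00. TFDP2, a dimer partner of E2F, had the smallest p, at -0.65 (limma adjusted p 0.124), and E2F8, a repressor E2F, was at -0.81. RB1 changed by 0.30. At an unadjusted p of 0.05, 2 of the 10 were past the threshold, where 2136 of all 7235 genes were. With the 4 arrays alone 2 of the 10 passed as lower, against 15.0% of all genes.

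At 96 h all 3 cell cycle lists were higher. The mitotic list averaged 9.13 and 8.85 at 96 h, the kinetochore list 9.06 and 8.69 and the replication list 8.94 and 8.65. Against 72 h, whose arrays are shared, 36 of 37, 40 of 40 and 54 of 55 members passed as higher, where 1161 of all 7235 genes did. At 53 h against 36 h 27, 36 and 7 had passed as lower, where 420 of all 7235 genes had. The list means of 72 h were the lowest of the times from 36 h on in each list, narrowly so in the replication list.

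**Figure D4:**
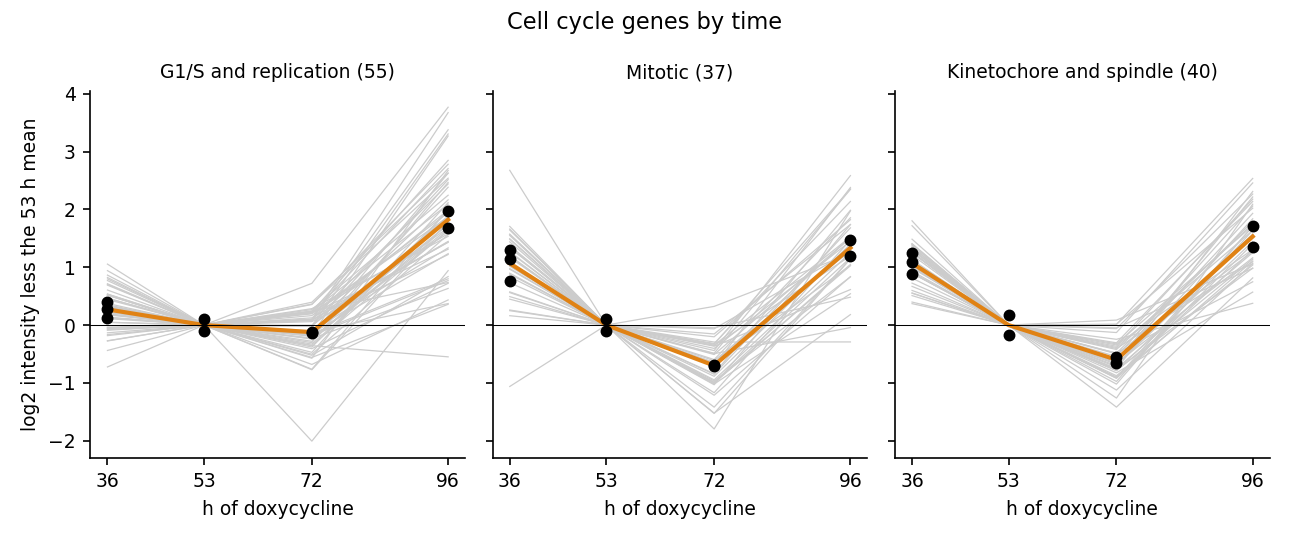
Log2 intensity less the 53 h mean for the 55 replication, 37 mitotic and 40 kinetochore and spindle genes at 36 h, 53 h, 72 h and 96 h, with a grey line a gene, a black point for the list mean on each array and an orange line through the means of the times. The 2 lists of mitosis dip at 72 h, the replication list stays near its 53 h level, and all 3 are above it at 96 h.

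Of the 35 listed EWS-FLI1-activated genes 26 were tested, and 8 fell, 1 rose and 17 did not pass, with a median of -0.66. Over all genes tested 9.11% fell and 5.38% rose. GYG2, a glycogenin, read 7.10 and 7.13 at 53 h and 5.05 and 5.25 at 72 h, a fall of 1.96 ± 0.22 (limma adjusted p 0.000341). PRKCB, protein kinase C beta, fell by 1.37 ± 0.27 from 6.88 and 6.53 to 5.27 and 5.40, and HOOK1, a dynein adaptor, by 1.15 ± 0.24. HES1, a Notch target, fell by 1.79 ± 0.48 and NKX2-2, a homeobox factor of Ewing sarcoma, by 0.67 ± 0.18. UPP1, uridine phosphorylase, rose by 1.04 ± 0.24. The list was written with earlier results of these data known, so its direction is no independent evidence. Leaving out 53 h replicate 1, 53 h replicate 2, 72 h replicate 1 and 72 h replicate 2 in turn left 1, 3, 2 and 2 as lower and 0 as higher, and the ACTB covariate 1 and 0.

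Of 20 EWS-FLI1-repressed genes 4 rose, where 5.38% of all genes did, and 0 fell, with a median of 0.29. Beside IGFBP3 these were IL6ST, the gp130 receptor subunit, at 11.84 and 11.81 and then 12.43 and 12.54, CAVIN1, a coat protein of caveolae, with 1.29 ± 0.30, and SPARC, a matricellular protein, with 0.35 ± 0.10. The change of IL6ST, 0.66 ± 0.08, was small but far outside its spread (limma adjusted p 0.000607). At 53 h against 36 h, which shares the arrays of 53 h, 13 of the 20 had passed as higher, where 372 of all 7235 genes had. In the same leave-one-out order 2, 3, 2 and 2 passed as higher between 53 h and 72 h, and with the ACTB covariate 2.

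Collagens and matrix proteins were higher at 72 h in part. Of 41 tested genes 10 rose, where 5.38% of all genes did, 1 fell and 30 did not pass, with a median of 0.38. Beside SPP1, elastin (ELN) read 4.93 and 5.15 at 53 h and 7.93 and 7.33 at 72 h, a rise of 2.59 ± 0.45. LTBP2, a protein of elastic fibres, went from 2.32 and 2.31 to 4.35 and 3.78 and on to 6.85 and 6.89 at 96 h. MGP, an inhibitor of calcification, was bright at 12.61 and 12.38 and rose to 14.18 and 14.02. EFEMP1, a fibulin, rose by 1.59 ± 0.23 (limma adjusted p 0.00152), and MFAP2, of microfibrils, by 0.79 ± 0.13. Of the collagens COL6A2 and COL4A2 rose by 0.63 ± 0.14 and 0.56 ± 0.13, and LUM was the one member that fell. Without 53 h replicate 1, 53 h replicate 2, 72 h replicate 1 and 72 h replicate 2 in turn, 6, 5, 4 and 6 passed as higher, and with the ACTB covariate 3.

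Enzymes that modify or cut matrix and their inhibitors went the same way. Of 24 tested genes 10 were higher, where 5.38% of all genes were, and 1 was lower, with a median of 0.38. HTRA1, a secreted serine protease, read 6.20 and 5.15 at 53 h and 8.75 and 8.84 at 72 h, a rise of 3.12 ± 0.29 (limma adjusted p 0.000128). Tissue plasminogen activator, PLAT, rose by 2.36 ± 0.42 from 7.40 and 7.07 to 9.73 and 9.46. The lysyl hydroxylases PLOD1, PLOD2 and PLOD3, which prepare collagen for cross-linking, rose by 0.42 ± 0.12, 1.30 ± 0.27 and 0.64 ± 0.11, and LOXL2, a lysyl oxidase, by 1.32 ± 0.28. BMP1, the procollagen C-proteinase, rose by 0.98 ± 0.23 and the gelatinase MMP2 by 0.66 ± 0.18, while ADAMTS1 fell. In the same leave-one-out order 5, 6, 4 and 3 passed as higher, and with the ACTB covariate 1.

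Among 32 tested actin, contractile and adhesion genes 11 rose, where 5.38% of all genes did, and 0 fell, with a median of 0.44. Without ITGB3, which entered the test through the arrays of 72 h, 10 of 31 rose with a median of 0.41. ITGAV, the alpha V integrin, read 11.96 and 11.63 at 53 h and 12.92 and 13.03 at 72 h, a rise of 1.18 ± 0.14 (limma adjusted p 0.000425). Its partner ITGB3 went from 2.70 and 2.38 to 4.09 and 4.63, at least 1.28-fold higher, and its other 6 probe sets stayed below log2 4 on the 4 arrays. ITGA1, a collagen receptor, rose by 1.66 ± 0.25, ITGA5, of the fibronectin receptor, by 0.53 ± 0.15 and ITGB1 by 0.38 ± 0.08. FHL2, a LIM protein, rose by 2.55 ± 0.40 and CD44, the hyaluronan receptor, by 0.96 ± 0.28. KRT18, the keratin counted among the epithelial markers, rose by 1.51 ± 0.24 from 8.35 and 8.66 to 9.98 and 10.04. Leaving out the arrays in turn left 4, 6, 4 and 4 higher, and the ACTB covariate 4.

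Smaller sets of signalling genes moved in a few members, where 5.38% of all genes tested rose and 9.11% fell. Of 21 TGF-beta and BMP genes 4 rose and 0 fell with a median of 0.32, and without PMEPA1 and GREM1, which entered through the arrays of 72 h, 3 of 19 with a median of 0.12. With the ACTB covariate 0 of the 21 passed. Those that rose were the ligand TGFB1 by 1.32 ± 0.36, SMAD3 by 0.98 ± 0.27, the inhibitor SMAD7 by 0.93 ± 0.26 and the feedback inhibitor PMEPA1 from 3.00 and 2.89 to 4.90 and 4.97. PMEPA1 read 3.88 and 5.52 at 96 h. A second TGFB1 probe set stayed below log2 4 on the 4 arrays and changed by 0.01. Of 13 genes of the insulin-like growth factor axis IGFBP6 and IGFBP7 rose by 2.05 ± 0.28 and 1.07 ± 0.23, and IGF2BP3, an RNA-binding protein, fell by 0.63 ± 0.12. SFRP1, a secreted Wnt antagonist, read 2.72 and 2.18 and then 5.38 and 5.75, at least 2.97-fold higher. It was the 1 of 16 Wnt genes that passed, and its other probe sets stayed below log2 4 on the 4 arrays, with changes of 0.01 and 0.96. Of 14 mesenchymal transcription factors 3 passed as higher. ZEB1 rose by 1.12 ± 0.22, MSX2 was at least 1.43-fold higher, and PRRX1 was below log2 4 on all 4 arrays, so that no fold is given for it. The other probe sets of ZEB1 and MSX2 stayed below log2 4 on the 4 arrays, with changes of -0.02 to 0.30. SNAI1 needed arrays of both times to pass the filter, and MSX2 those of 72 h. Without SNAI1 and MSX2 2 of 12 passed, ZEB1 and PRRX1, and with the ACTB covariate 1 of the 14 passed. In the same leave-one-out order the list's median was -0.118, -0.096, -0.191 and -0.117, against -0.1405 with all 12 arrays. For the TGF-beta genes it was 0.034, 0.385, 0.167 and 0.236.

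Of 15 neural genes 2 rose and 4 fell, where 5.38% of all genes rose and 9.11% fell. L1CAM, an axonal adhesion molecule, rose by 1.10 ± 0.22, while NCAM1 and NRCAM, adhesion molecules of the same superfamily, fell by 1.22 ± 0.28 and 0.71 ± 0.15. SNAP25, of the vesicle fusion machinery, fell by 1.44 ± 0.37 from 7.40 and 6.62 to 5.48 and 5.66, and MAP2 fell as given above. ENO2, a neuronal enolase, went from 2.73 and 2.70 to 4.25 and 3.64 and passed as higher, with 1 of the 4 arrays above log2 4. In the same leave-one-out order 0, 1, 0 and 1 passed as higher and 1, 4, 1 and 2 as lower, and with the ACTB covariate 0 and 1.

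Of 19 immediate early genes 3 fell and 0 rose, where 9.11% of all genes fell, with a median of -0.67. ATF3, a stress-induced transcription factor, read 9.92 and 9.75 at 53 h and 7.82 and 7.61 at 72 h, a fall of 2.12 ± 0.26 (limma adjusted p 0.000558). MYC fell by 0.81 ± 0.12 from 10.58 and 10.79 to 9.91 and 9.85, and NR4A1 fell as given above. FOS changed by -2.37 and EGR1 by -1.40 without passing (limma adjusted p 0.462 and 0.123). NR4A1 entered the test through the arrays of 53 h, and without it 2 of 18 fell. Leaving out each array in turn left 2 lower each time, with 1 higher without 53 h replicate 2. With the 4 arrays alone 13 of the 19 passed as lower and 1 as higher. In that fit 1045 of 6982 genes were lower (15.0%) and 658 higher. The call of this list therefore depends on which arrays give the spread.

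Genes of the integrated stress response, which ATF4 switches on when amino acids are short, showed the widest gap between fits. In the 12-array fit 0 of 31 tested members passed in either direction in limma. Past an unadjusted p of 0.05 were 4 of the 31, against 2136 of all 7235 genes. Yet both arrays of 72 h lay below both of 53 h for 26 of the 31, against 39.9% of all genes. The median change was -0.60. TRIB3, a pseudokinase of the response, read 10.50 and 10.57 at 53 h and 8.26 and 8.53 at 72 h. ATF5, a transcription factor of the response, read 9.64 and 9.89 and then 6.92 and 7.58, and DDIT3, or CHOP, 9.16 and 8.98 and then 7.52 and 7.63. The groups did not overlap in any of the 3, with limma adjusted p of 0.203, 0.162 and 0.284. In the fit of the 4 arrays alone 24 of 31 passed as lower, against 15.0% of all genes, with TRIB3 at -2.14 ± 0.12 (limma adjusted p 9.0e-05). The arrays at 36 h, which enter the spread of the 12-array fit, read 7.81, 11.58 and 11.71 for TRIB3, and the list averaged 8.31 on 36 h replicate 1 against 10.54 and 10.54 on the others. INHBE, an activin subunit chosen after its values were seen, went from 7.68 and 7.31 to 2.65 and 3.03, at least 11.3-fold lower, with a limma adjusted p of 0.0873 in the 12-array fit and 4.6e-05 in the other.

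Interferon response genes went both ways, with 6 of 22 tested members higher, 3 lower and a median of 0.29. The shares over all genes were 5.38% higher and 9.11% lower. GBP2, a guanylate-binding protein, read 4.53 and 5.03 at 53 h and 8.03 and 8.22 at 72 h, a rise of 3.35 ± 0.65 (limma adjusted p 0.00767). ISG20, an exonuclease, went from 3.43 and 2.69 to 5.15 and 5.43, at least 2.45-fold higher, and IFITM2 and IFITM3, which block virus entry, rose by 0.97 ± 0.25 and 0.79 ± 0.23. IFI44 and its relative IFI44L fell by 1.58 ± 0.39 and 2.92 ± 0.42, and ISG15 fell by 0.40 ± 0.11. Of 14 genes of MHC class I presentation HLA-B and HLA-C rose by 1.13 ± 0.32 and 0.96 ± 0.28, 2 near-identical genes whose probe sets may share signal, and neither passed when any of the 4 arrays was left out. The interferon counts were 1 and 1 without 53 h replicate 1, 2 and 2 without 53 h replicate 2, 0 and 1 without 72 h replicate 1 and 1 and 1 without 72 h replicate 2, and 1 and 1 with the ACTB covariate.

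Of 26 glycolysis and hypoxia genes 9 rose, where 5.38% of all genes did, and 1 fell, with a median of 0.29. LDHA, lactate dehydrogenase, read 12.21 and 12.15 at 53 h and 12.86 and 12.71 at 72 h, a rise of 0.61 ± 0.12 (limma adjusted p 0.00671). PKM, pyruvate kinase, rose by 1.18 ± 0.23, ALDOA, ENO1, PGK1 and PGAM1 by 0.27 to 0.51, and the glucose transporter SLC2A1 by 0.77 ± 0.19, whereas PFKM, the muscle phosphofructokinase, fell by 0.77 ± 0.12. Without 53 h replicate 1, 53 h replicate 2, 72 h replicate 1 and 72 h replicate 2 in turn 1, 4, 1 and 1 passed as higher, and with the ACTB covariate 1 as higher and 0 as lower.

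Of 41 mitochondrial ribosome genes 11 fell and 0 rose, with a median of -0.36, and of 33 respiratory chain genes 6 fell and 0 rose, with a median of -0.21, where 9.11% of all genes fell. MRPS33 read 9.86 and 9.78 and then 8.86 and 9.04, a fall of 0.87 ± 0.10 (limma adjusted p 0.00055), and MRPS22 fell by 0.73 ± 0.10. NDUFB5, a subunit of complex I, fell by 0.55 ± 0.12 and COX7C, of complex IV, by 0.40 ± 0.10. Of 32 cytosolic ribosomal proteins 5 fell, by 0.19 to 0.45, with a median of -0.14. In the same leave-one-out order 5, 12, 4 and 5 mitochondrial ribosome, 0, 5, 0 and 0 respiratory chain and 0, 5, 0 and 0 cytosolic ribosome genes passed as lower, and with the ACTB covariate 5, 0 and 0.

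Of 25 lysosome and autophagy genes 5 rose and 0 fell, with a median of 0.26. CTSB, the protease cathepsin B, read 11.27 and 11.33 at 53 h and 12.38 and 12.33 at 72 h, a rise of 1.06 ± 0.10 (limma adjusted p 0.000145). SQSTM1, the autophagy receptor p62, rose by 1.00 ± 0.17, and the sterol carrier NPC2 by 0.58 ± 0.14, with 2, 4, 2 and 2 of the list higher in the same leave-one-out order and 1 with the ACTB covariate. Of 19 heat shock genes the small chaperones CRYAB and HSPB1 rose, by 3.07 ± 0.79 and 0.85 ± 0.20, and HSPA4, CCT4 and CCT8 fell by 0.28 to 0.32. In the same leave-one-out order 0, 1, 0 and 0 heat shock genes passed as higher and 0, 0, 1 and 0 as lower, with the replicate block 2 and 1, and with the ACTB covariate 0 in either direction. Of 14 CDK inhibitor and quiescence genes CCNG1 and KLF4 fell, by 0.77 ± 0.12 and 1.32 ± 0.37, and of 10 histone genes H2BC9 and H2BC12, by 1.40 ± 0.32 and 1.11 ± 0.31, in a family whose probe sets may share signal and of which 0 passed with any array left out. Of 14 p53 target genes PMAIP1, or NOXA, rose by 0.83 ± 0.11 and TP53I3 and DDB2 fell by 1.22 ± 0.30 and 1.12 ± 0.18. Beside the counts of each list in this paragraph, 5.38% of all genes tested rose and 9.11% fell. Of 26 proteasome genes 2 rose, near the 5.38% of all genes, and 0, 2, 0 and 0 did in the leave-one-out order. Of 36 splicing genes and of 27 ribosome biogenesis genes 1 each fell, below the 9.11% of all genes. Of 16 cholesterol synthesis, 19 ER chaperone and 8 BCL2 family genes 0 passed in limma. Past an unadjusted p of 0.05 were 2, 0 and 2 of these, against 2136 of all 7235 genes.

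**Figure D5:**
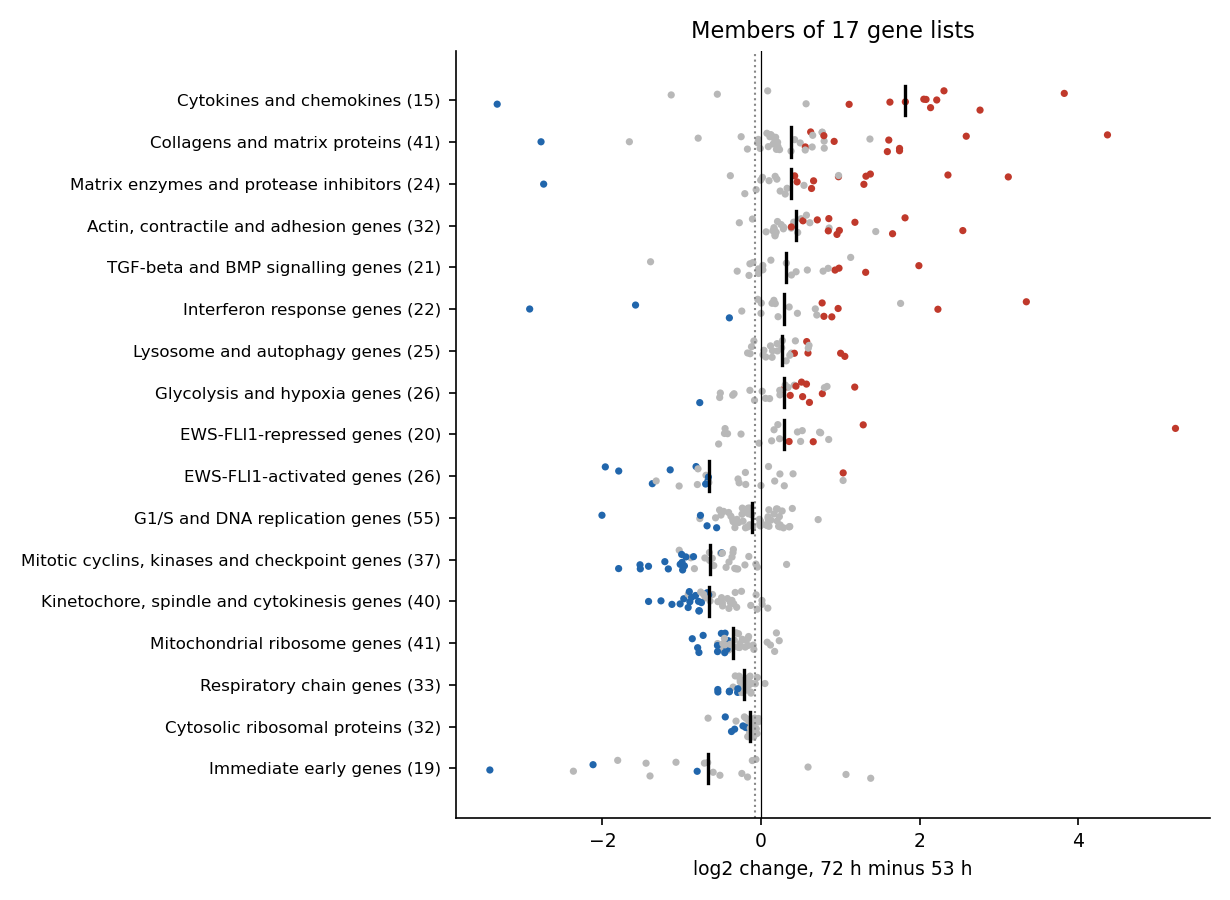
Log2 change from 53 h to 72 h for each tested member of 17 gene lists (number tested in brackets), with members that passed as higher in red, lower in blue and others in grey, a black bar at each list's median and a dotted line at the median of all genes. With the filter on low values the cytokine list has a median of 1.82, against 0.23 with none, and the mitotic and kinetochore lists lie almost wholly below 0.

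The change from 36 h to 96 h, whose means use no array of 53 h or 72 h, covers the same genes over a longer span. Its test came from the same 12-array fit, with the same estimate of spread and the same filter. The counts below are therefore not independent of the calls at 72 h against 53 h. There 20.5% of all genes tested were higher and 26.1% lower. Of the 389 genes that rose between 53 h and 72 h, 332 were also higher at 96 h than at 36 h, 2 were lower and 55 did not pass. The 2 were VCAM1, an adhesion molecule like ICAM1, which rose by 0.55 ± 0.14, and COCH, a secreted protein, which rose by 0.82 ± 0.16. Of the 659 that fell, 521 were also lower, 12 were higher and 126 did not pass. The 12 were DDB2, DLEU1, DLGAP4, JAK2, KIF11, MKI67, NDC80, OIP5, PCDH9, PRIM2, RRM2 and TMEM97. KIF11 and NDC80, of the spindle and kinetochore, MKI67, the proliferation marker Ki-67, and PRIM2 and RRM2, of replication, are cell cycle genes. MKI67 fell by 0.77 between 53 h and 72 h and was higher by 0.49 at 96 h than at 36 h.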

How the data were processed

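RNA of 16 samples was measured on single-colour arrays of 22277 probe sets. The authors deposited log2 values. Per the submitters' processing notes the tool was GCRMA, with version and settings not given in the sources used. The 62 control probe sets were left out of the tests. A probe set was named where the platform annotation gave it 1 symbol (19070, with 1043 giving several and 2164 none), and 19058 were matched to current symbols by Entrez number, with 0 changed. The probe set with the highest mean stood for a gene, which mattered for 4310 of 11963 genes.

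Genes at log2 4 or more on at least 2 of the 12 arrays after doxycycline were tested (7235, with 4728 left out). The 12 arrays were fitted by time with limma 3.58.1 (R 4.3.3, data.table, version 1.17.8, eBayes with trend, 7 residual degrees of freedom before moderation), and p-values were adjusted by Benjamini-Hochberg over all genes tested, with a threshold of 0.05. The fit was tested on simulated data. "At least" folds put log2 4 in place of the dim group where none of the gene's probe sets reached it. The named genes were FLI1, EWSR1 and E2F1, the 12 highest and 12 lowest changes past the threshold and up to 4 members of each of 38 lists, and further members are named to account for a list's count. The comparison, lists and tests were chosen with earlier results of these data known. The alternatives were other sets of arrays, the replicate number as a block, scaling, probe set rule, filter, variance model and leaving out each array. The ACTB covariate and the counts of changes of at least 1 were added after the data were seen. Promoter windows of 300 bases (RefSeq, GRCh38.p14) were matched by symbol to 6075 of the 7235 genes, and figures were drawn with matplotlib 3.10.9 and pandas 2.3.3 in Python 3.11.15.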

Additional observations from a re-analysis of the deposited data

How the results depend on the processing

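The fit gave 1048 genes, 389 higher and 659 lower. Fits with all 16 arrays, centred arrays, a second quantile normalization, mean probe sets, no filter, a filter at log2 6 or no variance trend gave 879 to 1215 genes. With only the 4 arrays of 53 h and 72 h 1703 passed (658 higher, 1045 lower), and with array weights 1785 (621, 1164). With _x_at and _s_at probe sets left out 4372 genes were tested and 627 passed (243, 384). Averaging the arrays numbered 2 and 3 at 18 h and 36 h gave 700, with 425 lower. The ACTB covariate gave 281 (144, 137), of which 51.2% were higher against 37.1% in the first fit, and a minimum change of 1 on the log2 scale gave 200 and 172. Leaving out each array gave 356 to 840 genes, 135 to 262 higher and 182 to 578 lower, and the share that was higher was 48.9% without 53 h replicate 1. Of the 1048 genes 346 of 1044 tested passed without 53 h replicate 1 and 275 of 1048 with the ACTB covariate, and all of those tested kept their sign in these fits. The causes of these differences were not tested, beyond the fewer genes or arrays that a setting uses.

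With the replicate number as a block 954 genes passed (360 higher, 594 lower), 884 of them among the 1048. The labels do not say that equal numbers mark a shared culture, and the deviations of equally numbered arrays of 53 h and 72 h correlated at 0.0013, over 2 pairs, against 0.1586 for 72 h and 96 h and 0.2518 for 53 h and 96 h. From 36 h to 96 h 3365 genes passed, 3454 with all 16 arrays and 3210 with the block.

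Among 124 named genes, RRM2 went to 0.0148 with all 16 arrays, with the 4 arrays alone and without _x_at and _s_at probe sets, and CENPN to 0.47 in the last, each because another probe set was used. Without 53 h replicate 1, 53 h replicate 2, 72 h replicate 1 and 72 h replicate 2 in turn 53, 29, 51 and 47 named genes no longer passed, and 62 with the ACTB covariate. Values below log2 4 are near background, where the order of levels has no meaning, and 2 arrays a time limit the precision of every change.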

Other observations

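The genes here were chosen after their values were seen and lie outside the lists, so their values are a description. IL1R1, the signalling receptor of interleukin 1, read 3.81 and 3.62 at 53 h and 6.54 and 6.50 at 72 h, at least 5.72-fold higher. OSMR, the oncostatin M receptor, read 5.58 and 6.52 and then 9.53 and 9.50. TNFRSF9, a receptor of the TNF family, was at least 5.16-fold higher and read 3.66 and 3.99 at 96 h. Among the times of 53 h, 72 h and 96 h it reached log2 4 at 72 h only. In these 3 genes the arrays of 72 h lay above those of 53 h, as they did for 24.7% of all genes tested. Of the NF-kB subunits, NFKB1 changed by 0.71 ± 0.16 (limma adjusted p 0.0138) and RELA by 0.40 ± 0.16 without passing (limma adjusted p 0.131). The secreted factors HGF and TNFSF15 were higher by 3.06 ± 0.25 and 2.24 ± 0.24.

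RARB, a retinoic acid receptor, read 4.18 and 4.64 at 53 h, 6.44 and 6.82 at 72 h and 4.81 and 5.18 at 96 h, so both arrays of 72 h were above those of the neighbouring times. DHRS3, a retinaldehyde reductase, was at least 5.00-fold higher at 72 h than at 53 h, RARRES1 at least 1.85-fold and PLAAT4 at least 3.42-fold. RARA and RARG changed by -0.33 and -0.06, CRABP2, a binding protein of retinoic acid, by 0.85 and ALDH1A3, which makes it, by -2.06, and none of these 4 passed (limma adjusted p 0.123 to 0.931).

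Among the genes that fell outside the lists, SKP2, a subunit of the ubiquitin ligase that targets p27, read 9.97 and 9.97 at 53 h and 8.16 and 8.16 at 72 h. PTCH1, the Hedgehog receptor, fell by 1.48 ± 0.13, BMP7 by 1.56 ± 0.14 and the receptor tyrosine kinase ALK by 1.64 ± 0.23. UCP2, a carrier of the inner mitochondrial membrane, fell at least 4.03-fold and read 5.85 and 6.20 at 96 h, close to its 5.90 and 6.12 at 53 h.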
